A study of Mus musculus with 6 samples.

Results

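The early growth response (EGR) transcription factors EGR1, EGR2, EGR3 and EGR4 and their corepressors NAB1 and NAB2 were followed in PA6 cells, a murine stromal line, exposed for 3 h to FGF2, to BMP4 or to neither. Every probe that the array names for 1 of these 6 genes was taken, which gave 12 of the 45281 probes. In PA6 cells exposed to FGF2, the EGR1, EGR2 and EGR3 mRNAs were higher by 4.19, 4.14 and 3.43 on the log2 scale, NAB2 was higher by 0.65, the brightest NAB1 probe was higher by 0.14 with overlapping groups, and EGR4 was not detected. With BMP4 the differences of the brightest probes of the 5 genes detected lay between -0.27 and -0.00. The genes were chosen by their array intensities in the FGF2, BMP4 and -GFs samples, with the response to FGF2 known, so their levels and differences are a description and carry no p-value.

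EGR proteins are zinc finger factors that bind GC-rich sites in promoters. Their genes are immediate early genes: growth factor receptors acting through RAS, RAF and the kinases MEK and ERK phosphorylate ETS factors such as ELK1, which sit beside SRF at serum response elements, so that transcription starts without new protein synthesis. NAB1 and NAB2 have no DNA-binding domain of their own, attach to an inhibitory region that EGR1, EGR2 and EGR3 have and EGR4 lacks, and recruit the nucleosome remodelling and deacetylase complex NuRD. NAB2 is itself known as an EGR target, which closes a negative feedback loop, and EGR1 is known in vessels and connective tissue as a regulator of growth factor and matrix genes.

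Promoter windows in RefSeq (GRCm38.p6) were searched for 4 of the 6 members. Each window has 300 bases, from 250 before to 50 after an annotated start. Egr2 has 5 windows, and the other members searched were Egr4, Nab1 and Nab2. No window of Egr1 or Egr3 was searched, so the motifs of their promoters are not described. The windows of Egr2 are shown around the CArG box, the element that SRF binds, since Egr2 is among the members that were higher with FGF2. Both stretches lie on the plus strand, with the CArG box in capitals.
Egr2, chr10:67537787-67537816: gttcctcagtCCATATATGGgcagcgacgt
Egr2, chr10:67537484-67537513: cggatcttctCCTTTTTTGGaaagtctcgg
The first box begins at -72 from the annotated start at 67537869, and the second at -72 from the start at 67537566. A CArG box was found in 1.63% of the 32851 windows of all genes. The window that holds the second box also has 3 matches to the ETS core CCGGAA, read on both strands, of which 2 overlap each other. That core was found in 14.9% of windows. The CRE letters TGACGTCA, searched on both strands and found in 1.79% of windows, gave no match in the windows of these 4 members.

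The Nab1 window is shown for the letters that EGR proteins bind, GCGTGGGCG or GCGGGGGCG on either strand. It lies on the minus strand of chromosome 1, and the sequences are written 5′ to 3′ on that strand with the match in capitals.
Nab1, chr1:52500571-52500600: cgccccgcggcCGCCCACGCcgggatctgc
Nab1, chr1:52500539-52500568: cactcggccgcGCGTGGGCGggagccggag
Nab1, chr1:52500468-52500497: cgcggggcgggGCGGGGGCGgcggaggtgg
These matches begin at -141, -109 and -38 from the start of Nab1. Of all windows, 0.612% held GCGTGGGCG, 2.91% held GCGGGGGCG and 3.47% held either. The windows of Nab2 and Egr4 held none of the motifs searched. A match describes letters in a window, and binding was not measured.

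Confluent PA6 monolayers were kept for 3 h in serum-free medium. The wells labelled -GFs received no growth factor, and the others received FGF2 at 20 ng/ml or BMP4 at 10 ng/ml, the doses given in the labels. Each condition had 2 biological replicates, numbered 1 and 2, and each well gave 1 Illumina BeadChip array, 6 in all. All wells are of the same cell line, without ES cells, and no protein was measured. The deposited intensity is the mean brightness of the beads of a probe, here normalized by a cubic spline and given as log2. The median intensity of the arrays lay between 153.4 and 168.1, and 15509 to 16459 probes per array were detected at a detection p-value under 0.05. All 12 stromal markers examined were detected on all 6 arrays. Of 12 markers of blood, endothelial, epithelial, neural and ES cells, 9 were detected on none, Pou5f1 on all 6, Kdr on 4 and Map2 on 1. The summed intensity of the stromal markers was 150814 to 180618 in -GFs, 133265 to 133503 with FGF2 and 145814 to 156279 with BMP4, and that of the other markers was 1860 to 1881, 1931 to 1996 and 1862 to 2120, and their part in the differences given here was not tested. In such cultures fewer cells of a type and less RNA per cell cannot be told apart.

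EGR1, a zinc finger factor of the serum response, had intensities of 1192.1 and 1225.5 on the -GFs arrays, 20403.6 and 19567.7 with FGF2, and 719.6 and 1798.7 with BMP4. Both FGF2 arrays stood above all the others, and the highest intensity of any probe on them was 68824 and 68044. On the log2 scale EGR1 was at 10.18 ± 0.22 (SD, n = 2) in -GFs and at 14.37 ± 0.0049 (SD, n = 2) with FGF2, a difference of 4.19 or 18.3-fold. The replicate pairs gave 4.34 and 4.04.

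EGR2, the factor also called Krox20 that directs hindbrain patterning and myelination, had 380.3 and 413.1 in -GFs, 5949.3 and 7137 with FGF2, and 286.3 and 391.5 with BMP4. The FGF2 arrays again lay above all the others. The log2 level went from 8.57 ± 0.29 (SD, n = 2) to 12.71 ± 0.20 (SD, n = 2), which is 4.14 or 17.6-fold, with 4.20 and 4.07 in the pairs.

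EGR3, a factor needed for muscle spindles, had 2 probes that did not behave alike. The probe ILMN_1227494 gave 237.9 and 193.6 in -GFs, 1969.6 and 2505 with FGF2, and 171.1 and 174.3 with BMP4, where neither array passed detection (detection p 0.0780 and 0.137). Its log2 level was 7.71 ± 0.09 in -GFs and 11.14 ± 0.28 with FGF2 (SD, n = 2 each), a difference of 3.43 or 10.8-fold, with 3.16 and 3.69 in the pairs. The probe ILMN_2653543 gave 251.8 and 175.4, then 203 and 237, then 212.1 and 241.4 in the same order, was detected on 5 of 6 arrays, and had overlapping groups. Its difference with FGF2 was 0.12, with -0.18 and 0.42 in the pairs. Whether these probes read different transcripts of EGR3 was not tested, since the probe sequences were not used here.

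EGR4, the member whose protein does not bind NAB, had 1 probe that was detected on none of the 6 arrays. Its intensities were 144.2 and 132.5 in -GFs, 140.1 and 171.1 with FGF2, and 124.8 and 153.9 with BMP4, all within the range of the negative control beads at the threshold used. A response of EGR4 was therefore not detectable on these arrays.

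**Figure D1:**
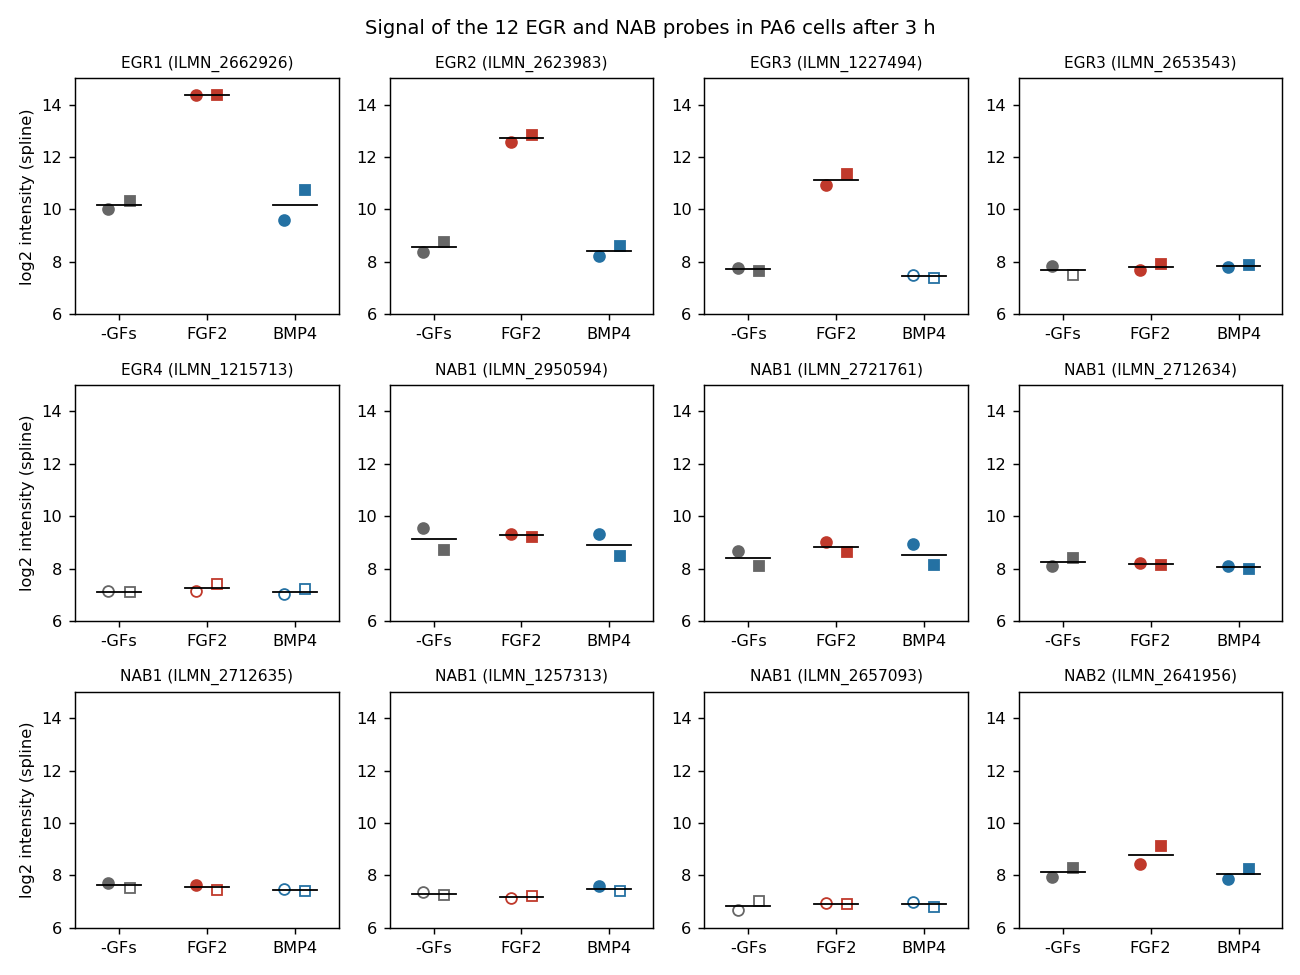
Normalized log2 intensity of the 12 EGR and NAB probes (y axis, 1 panel per probe) in -GFs, FGF2 and BMP4 (x axis). Circles are replicate 1, squares replicate 2, open symbols arrays where the probe was not detected, and lines the mean of 2 arrays. EGR1, EGR2 and the EGR3 probe ILMN_1227494 stand higher on both FGF2 arrays, at 10.94 to 14.37, while the panel of EGR4 has open symbols only. Levels of different probes are not comparable.

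NAB2, the corepressor that EGR factors are known to induce, had intensities of 275.8 and 294.2 in -GFs, 344.8 and 523.2 with FGF2, and 224.9 and 301.7 with BMP4. Both FGF2 arrays were above the other 4, and they differed from each other more than the arrays of the other groups did. The log2 level was 8.12 ± 0.23 (SD, n = 2) in -GFs and 8.77 ± 0.48 (SD, n = 2) with FGF2, a difference of 0.65 or 1.57-fold, with 0.47 and 0.83 in the pairs.

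NAB1, the other corepressor, had 6 probes, of which 3 were detected on all 6 arrays. The brightest, ILMN_2950594, gave 877.6 and 391.7 in -GFs, 648.4 and 561.4 with FGF2, and 605.3 and 360.5 with BMP4. Its groups overlapped, and its difference with FGF2 was 0.14 on the log2 scale, with -0.24 and 0.52 in the pairs.

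ILMN_2721761 gave 475.4 and 262.8 in -GFs, 523.8 and 374.6 with FGF2, and 465.1 and 280.5 with BMP4. Its groups overlapped as well, but within each replicate the FGF2 array was the higher, by 0.34 and 0.51 (mean 0.42). ILMN_2712634 gave 309 and 323.8, 301.3 and 268.7, and 264.9 and 259.6, with a difference of -0.08 for FGF2. The remaining 3 probes were detected on 2, 1 and none of the arrays, and their FGF2 differences lay between -0.13 and 0.07.

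**Figure D2:**
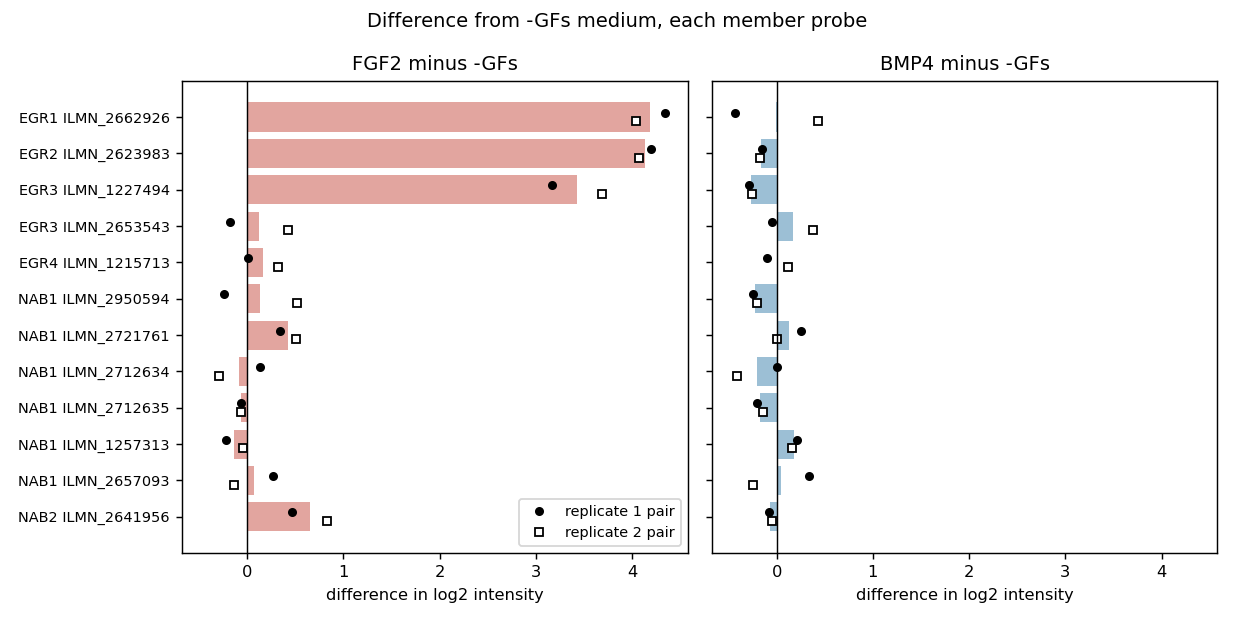
Difference in log2 intensity from -GFs (x axis) for each member probe (y axis), with FGF2 on the left and BMP4 on the right. Bars are the difference of the means of 2 arrays, and the circle and the square are the replicate 1 and replicate 2 pairs. With FGF2, EGR1, EGR2 and 1 EGR3 probe lie between 3.43 and 4.19, and every other probe lies at 0.65 or below. With BMP4 the bars lie between -0.27 and 0.19.

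The 5 members with a probe that passed the detection filter, all but EGR4, were among 11872 genes fitted with limma. A gene was called at an absolute log2 fold change over 1 and a Benjamini-Hochberg adjusted p under 0.1. With FGF2 against -GFs, EGR1, EGR2 and EGR3 were called higher and NAB1 and NAB2 were not. Of all genes 3.53% were called, 271 higher (2.28%) and 148 lower (1.25%), and after scaling to a common median the split was 208 and 209. A fit with the replicate block called 3.95% of genes, EGR1, EGR2 and EGR3 included. In order of rise among all genes EGR1 was number 1, EGR2 number 2, EGR3 number 7, NAB2 number 777 and NAB1 number 3892. With neqc, a normalization that subtracts background, EGR1 was number 7, EGR2 number 3, EGR3 number 2, NAB2 number 575 and NAB1 number 3955. These places follow from the values by which the genes were chosen.

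The size of the EGR3 rise depended on how background was treated. With neqc, which estimates the background from the detection p-values, the FGF2 difference was 4.35 for EGR1, 4.73 for EGR2 and 4.75 for EGR3, so that EGR3 was no longer the smallest of them. NAB2 went from 0.65 to 1.04 and the brightest NAB1 probe from 0.14 to 0.20. In a fit chosen after seeing the data, neqc with the replicate block, NAB2 was called higher beside EGR1, EGR2 and EGR3, both against -GFs, where 9.63% of all genes were called, and against BMP4, where 8.31% were. With 1 array left out in turn, EGR1 ranged from 4.03 to 4.35, EGR2 from 3.93 to 4.34, EGR3 from 3.23 to 3.63, NAB2 from 0.31 to 0.99 and NAB1 from -0.30 to 0.58.

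**Figure D3:**
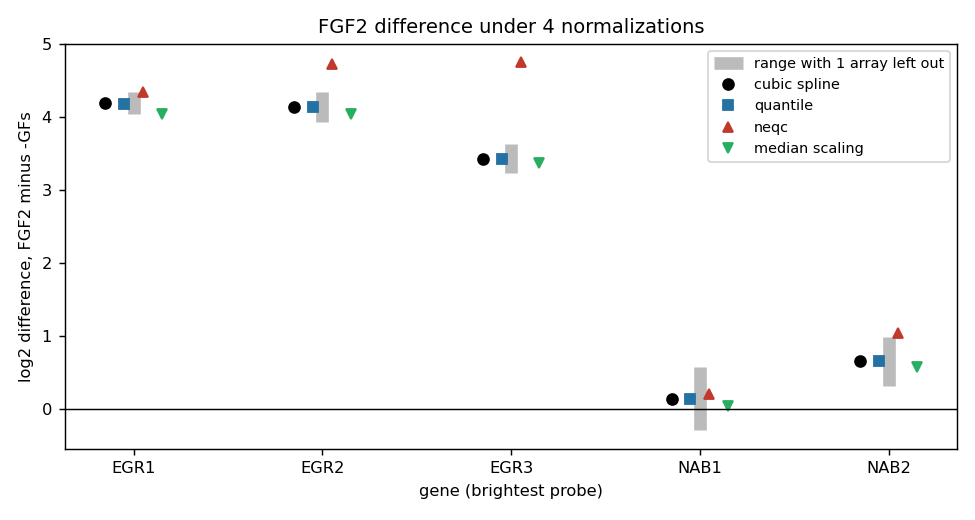
FGF2 difference in log2 intensity (y axis) of the brightest probe of the 5 genes fitted (x axis) under cubic spline, quantile, neqc and median scaling normalization, 1 symbol for each. Grey bars span the values obtained with 1 array left out under the spline. The values of EGR1, EGR2 and EGR3 lie between 3.23 and 4.75, EGR3 rises from 3.43 to 4.75 with neqc, and the bar of NAB1 crosses 0.

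BMP4 left the members with small differences from -GFs. EGR1 was at 10.18 ± 0.22 in -GFs and 10.18 ± 0.83 with BMP4 (SD, n = 2 each), and its pairs went opposite ways, by -0.43 and 0.43. EGR2 differed by -0.16, NAB2 by -0.06 and the brightest NAB1 probe by -0.23, all with overlapping groups. EGR3 differed by -0.27 on its responding probe and by 0.17 on its other probe, the latter with overlapping groups. The responding probe stood near background in -GFs as well (detection p 0.00855 and 0.0427). That probe was not detected with BMP4, and its level in -GFs was at least 1.09-fold higher. In this bound the lowest detected signal of each array stood in for the BMP4 values where these were lower. No member was called, against 0.00842% of all genes, a single gene, the BMP target ID1. With the replicate number as a block 10 genes were called (0.0842%), and still no member. At an unadjusted limma p under 0.05, as under the methods' t-test, the members past the threshold with BMP4 also numbered 0. The share of all genes past that threshold is not given here, so this count is no result about the members.

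FGF2 and BMP4 were also set against each other directly. EGR1 was higher with FGF2 by 4.19 and EGR2 by 4.30. EGR3 was at least 11.8-fold higher, with a measured difference of 3.70. NAB2 was higher by 0.71 and the brightest NAB1 probe by 0.37. The members called were again EGR1, EGR2 and EGR3, all 3 higher with FGF2, where 3.07% of all genes were called, 2.02% in that direction, and 3.5% with the replicate block. This comparison and that with -GFs share the FGF2 arrays.

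Replicates of a group differed for some members by more than they did for most genes. On the BMP4 arrays EGR1 was 1.17 higher on the log2 scale in replicate 2, a difference that 0.842% of genes equalled or passed. Its intensity there, 1798.7, was the highest of EGR1 outside the FGF2 arrays. FOS, an AP-1 subunit, differed by 1.14 the same way, but was not detected on BMP4 replicate 1 (intensity 145.8). FOS was picked out for that difference. Of the 12 other early response factors 7 were higher in BMP4 replicate 2, with a median difference of 0.03. The differences of JUN and KLF6 were -0.45 and -0.43. With FGF2, EGR1 differed between replicates by 0.01 and FOS by 1.11. NAB1 was lower in replicate 2 on its brightest probe by 0.87 in -GFs (4.44% of genes differed as much), by 0.83 with BMP4 (3.73%) and by 0.12 with FGF2 (64.2%). NAB2 was 0.68 higher in replicate 2 with FGF2 (3.41%) and 0.32 and 0.35 higher in -GFs and BMP4.

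The genes with the nearest profiles were those with the smallest root mean square difference over the 6 arrays, after each gene's mean was subtracted. For EGR1 these were EGR2 (0.25), DUSP6 (0.30), a phosphatase of ERK, and TNFRSF12A (0.39), the receptor of the cytokine TWEAK. For EGR2 they were EGR1 (0.25), DUSP6 (0.29) and EGR3 (0.38). For EGR3 they were LOC240672 (0.17), whose gene number is that of the phosphatase gene Dusp5 in RefSeq, then DUSP6 (0.28) and HMGA1 (0.28), a chromatin protein. The FGF2 differences of these other genes were 3.55 for DUSP6, 3.88 for TNFRSF12A, 3.13 for LOC240672 and 2.99 for HMGA1.

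For NAB2 the nearest were EIF3S4 (0.057), an older name of a translation initiation factor subunit, HAS2 (0.067), a hyaluronan synthase, and PPARD (0.076), a nuclear receptor. Their FGF2 differences were 0.68, 0.63 and 0.71. Between members the distance was 0.25 for EGR1 and EGR2, 0.38 for EGR2 and EGR3, 0.51 for EGR1 and EGR3, 0.58 for NAB1 and NAB2, and 1.38 to 1.98 between an EGR and a NAB gene. These distances rest on 6 arrays in 3 groups and follow mostly the FGF2 difference of each gene.

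**Figure D4:**
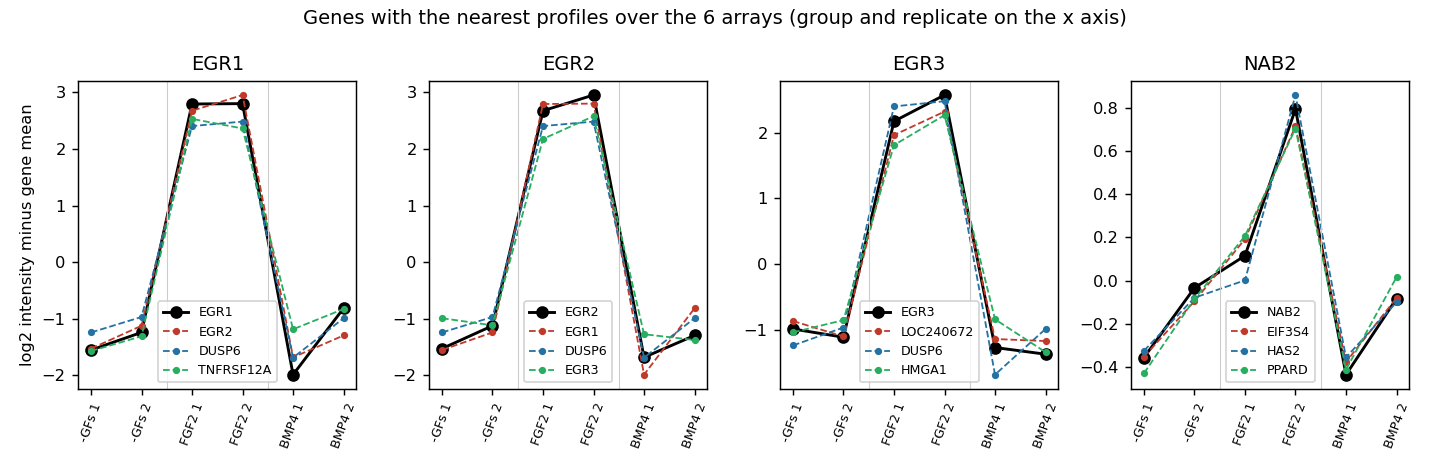
Log2 intensity minus the gene's mean over the arrays (y axis) on each of the 6 arrays (x axis, group and replicate) for EGR1, EGR2, EGR3 and NAB2 (black) and the 3 genes nearest to each (colours). Lines only join the points of a gene, and the y scale differs between panels. EGR1 and EGR2 have a root mean square difference of 0.25, and NAB2 and its neighbours are highest on the second FGF2 array.

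The route from FGF receptors to SRF was examined through 30 genes, of which 20 were tested. FGFR2, a receptor that FGF2 can bind in its IIIc form, fell with FGF2 from 12.33 ± 0.22 to 11.04 ± 0.10 (log2, SD, n = 2 each), by 1.29 ± 0.17 (SE; limma, Benjamini-Hochberg adjusted p = 0.0114), and its other probe detected on all arrays differed by -0.84. That call was lost without FGF2 replicate 1 (adjusted p = 0.106) or FGF2 replicate 2 (adjusted p = 0.104). No gene of the list was called higher, and the median was 0.03 where that of all genes was -0.02. FGFR1 differed by -0.25 (limma, Benjamini-Hochberg adjusted p = 0.614). SRF went from 9.92 ± 0.56 to 10.91 ± 0.02 (SD, n = 2 each), by 0.99 (limma, adjusted p = 0.120), and was called only when -GFs replicate 2 was left out. ELK3, an ETS partner of SRF, differed by 0.40 (limma, adjusted p = 0.226), and FGFR3, FGFR4, ELK1 and ELK4 were detected on 1 array at most and were not tested.

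Genes that other work names as EGR targets numbered 32, of which 26 were tested. With FGF2, 4 of them were called higher and 1 lower, 19.2% where 3.53% of all genes were called, and the median was 0.44. The list was drawn up with earlier results of these data known, so this share is a description. The matrix protein THBS1 rose from 7.74 ± 0.07 to 9.30 ± 0.01 (log2, SD, n = 2 each; difference 1.56, limma adjusted p = 0.00524), and with neqc the difference was 2.60. The hyaluronan receptor CD44 rose by 1.31 (limma adjusted p = 0.0162), the angiogenic factor VEGFA by 1.29 (0.0114) and the cytokine TGFB1 by 1.14 (0.0258). Other CD44 probes that passed the detection filter differed by 1.24 and 0.78, the latter detected on 2 arrays, and the second VEGFA probe by 1.45. The stress gene GADD45B fell from 11.79 ± 0.06 to 10.31 ± 0.20 (SD, n = 2 each), by 1.48 (limma adjusted p = 0.00806), and its second probe differed by -0.59. CD44 and TGFB1 were not called without FGF2 replicate 2 (adjusted p = 0.146 and 0.187), nor VEGFA without FGF2 replicate 1 (adjusted p = 0.106).

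The gene of FGF2 itself was not detected in -GFs or with BMP4, and its level after FGF2 was at least 1.57-fold that of -GFs. ARC, another target known from neurons, was at least 1.38-fold higher on the same basis. Both genes passed the detection filter only through the FGF2 arrays, which favours a rise, so no p-value is given for them. The median of the targets includes both. Among the targets not tested, PDGFB, F3, PTGS2, GDF15 and HPSE were detected on none of the arrays. In the promoter windows available for 23 targets, 5 held an EGR site in either form (21.7%, where 3.93% of all genes did), those of Bcl2l11, Fgf2, Flt1, Mmp14 and Tgfb1. Of these only TGFB1 was called with FGF2, and the gene of FGF2 is given above as a bound. BCL2L11 differed by -0.81 (limma adjusted p = 0.0281), FLT1 by 0.81 (0.0798) and MMP14 by 0.11 (0.749), all short of the fold threshold. The windows of all genes were not matched for GC content. Whether EGR proteins bound any of these genes in PA6 cells was not measured.

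Other early response factors numbered 19, of which 12 were tested, and 6 were called higher with FGF2 and none lower. This is 50% of those tested, where 3.53% of all genes were called and 2.28% called higher, and the median was 1.03 where that of all genes was -0.02. As with the targets, earlier results of these data were known when the list was chosen, so the share is a description. IER3 rose from 10.55 ± 0.27 to 13.08 ± 0.44 (log2, SD, n = 2 each), by 2.52 (limma adjusted p = 0.00666), and JUNB by 2.08 (0.0226). FOS rose by 1.61 (limma adjusted p = 0.0918), KLF2 and FOSL2 by 1.25 each (0.0131 and 0.0218) and JUN by 1.24 (0.0382). The calls of FOS and JUN were lost whenever 1 of the -GFs or FGF2 arrays was left out (adjusted p from 0.104 to 0.392), that of FOS also with neqc (2.69, adjusted p = 0.127) and with no detection filter (adjusted p = 0.105), those of KLF2 and FOSL2 without FGF2 replicate 2 (adjusted p = 0.132 and 0.148), and that of JUNB without FGF2 replicate 1 (adjusted p = 0.113) or FGF2 replicate 2 (adjusted p = 0.187). A second probe of FOSL2, detected on 3 arrays, differed by 0.07, and with the mean of its probes FOSL2 differed by 0.66 and was not called. In the windows of 15 of these genes, 5 held an EGR site in either form (33.3%, where 3.93% of all genes did, without matching for GC content).

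NuRD subunits, the remodelling complex that NAB proteins recruit, numbered 13, of which 9 were tested. None was called with FGF2 by limma, and 1 had an unadjusted p under 0.05, a threshold for which the share of all genes is not given. HDAC2 was the highest at 0.41 (limma adjusted p = 0.428), RBBP4 the lowest at -0.39 (0.202), and the median was -0.11.

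**Figure D5:**
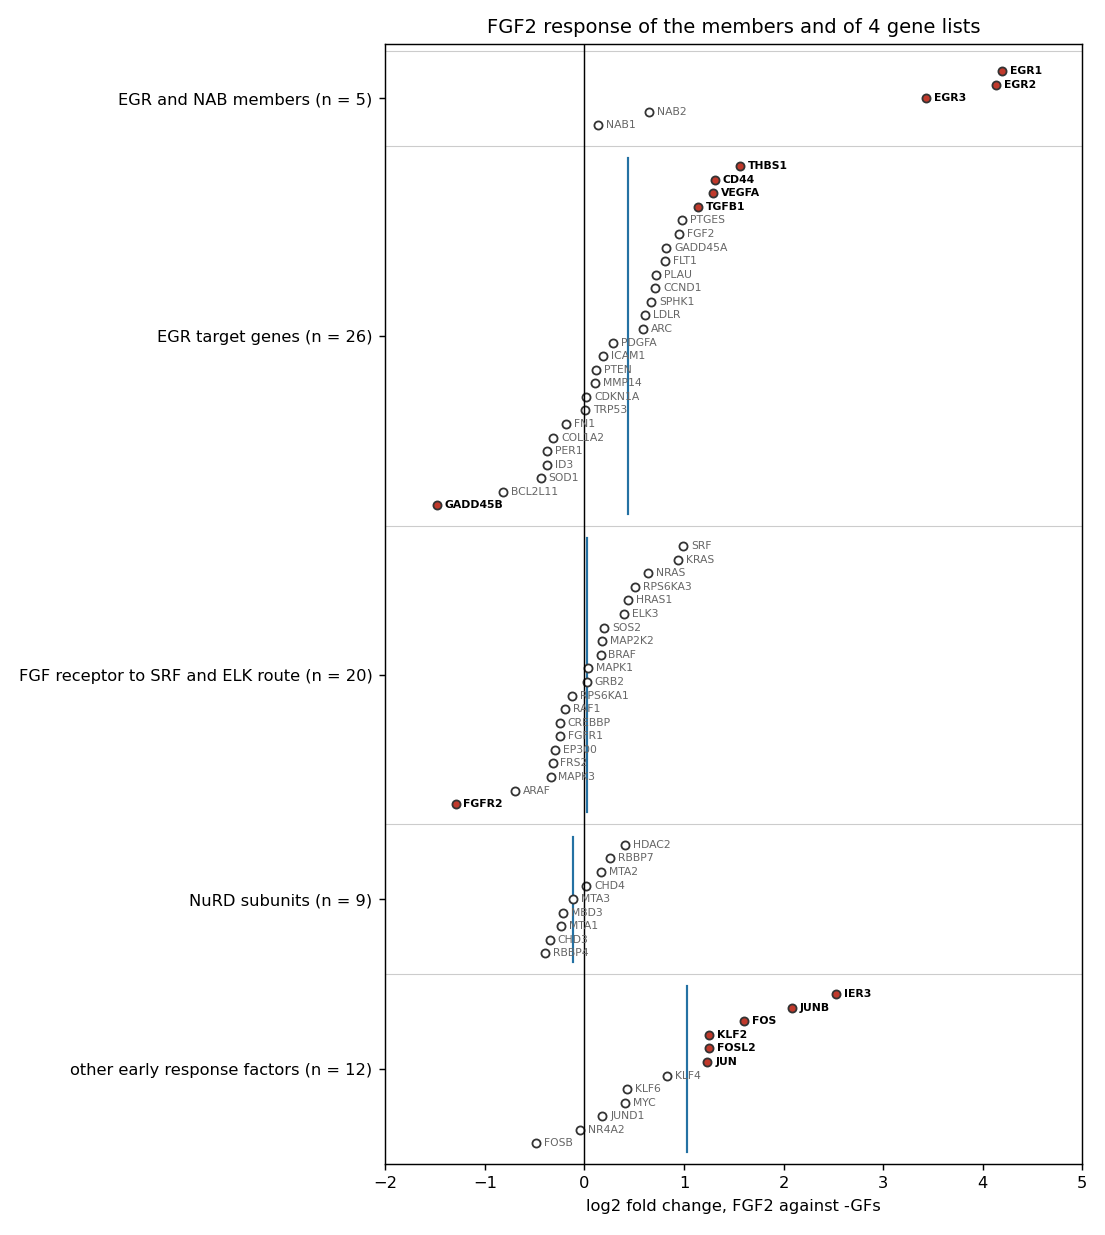
Log2 fold change with FGF2 against -GFs (x axis) of the 5 members fitted and of the tested genes of 4 lists (rows, 1 point per gene, sorted within a list). Filled points are genes called at an absolute log2 fold change over 1 and adjusted p under 0.1, and blue lines are list medians. The called points are EGR1, EGR2 and EGR3, 5 EGR targets, FGFR2 and 6 other early response factors, and no NuRD subunit.

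With BMP4 the lists had 0 calls by limma and medians of -0.07 (EGR targets), 0.02 (route to SRF), -0.02 (NuRD) and -0.13 (other early response factors). At an unadjusted limma p under 0.05 there were 2 EGR targets and 0 genes in each of the other lists, and the methods' t-test gave the same numbers. Without the share of all genes at that threshold, these counts cannot be told from background. The largest difference was that of ID3, an inhibitor of DNA binding and a BMP target, at 2.10 (limma adjusted p = 0.999), which was called with the replicate number as a block (adjusted p = 3.58e-07).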

How the data were processed

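RNA of PA6 cells from 3 groups of 2 was hybridized to MouseWG-6 v2.0 arrays, which the authors processed with Illumina's BeadStudio and GenomeStudio (version 2011.01 in the submitters' processing notes). The authors deposited bead intensities before normalization between arrays, with detection p-values against negative control beads. The table has 9 value columns that carry no heading, with entries on 2045 lines, and ends in 6 leftover lines. These were not used. The BMP4 dose is that of the labels, and the methods give another for the co-cultures.

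From the deposited intensities, cubic spline normalization as named in the methods was rewritten in R 4.3.3 (452 quantiles per array) and log2 was taken. Without background subtraction, differences of dim probes are compressed. A probe was kept if both arrays of any 1 group had a detection p under 0.05 for it, and the brightest probe stood for a gene. limma 3.58.1 was fitted on all 6 arrays with 3 residual degrees of freedom. An exact permutation of 2 against 2 arrays cannot go below p = 0.333, and the number of arrays limits the precision. Where neither array of a group detected a probe, the fold is a bound, from the higher of its own signal and the lowest detected signal of each array. In simulated data, 200 of 11872 genes were changed, and for FGF2 against -GFs the fit recovered 56 of 59 genes changed by a log2 of 2, 74 of 76 changed by 3 and 64 of 65 changed by 4, with 9 unchanged genes called. Changes below a log2 of 2 were not simulated, so recovery near the fold threshold is not known.

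The arrays were paired by replicate number, since each number occurs once in every condition. The sample titles do not say whether same-numbered arrays shared a culture. Deviations of same-numbered arrays correlated at 0.602 (-GFs and FGF2), 0.741 (-GFs and BMP4) and 0.579 (FGF2 and BMP4). The methods name limma and no block, so the block is an alternative.

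The members and gene lists were chosen with earlier results of these data known. Named are all member probes, list genes that were called (or the highest and lowest where none was), FGF receptors, SRF and ELK genes, and the 3 nearest profiles. FOS in the replicate comparison, ID1 and ID3 with BMP4, the genes of FGF2 and ARC, the undetected targets and the genes with promoter matches were named after their values were seen. Of 116 list and marker genes, 113 were found on the array through RefSeq (GRCm38.p6) symbols and synonyms. Promoter windows are RefSeq's. 1 gene of the EGR target list is not reported here by name.

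The alternatives were quantile, neqc (offset 16) and median scaling, other detection filters, all probes or their mean, the replicate block, eBayes with trend, no fold threshold, the methods' t-test, and 1 array left out.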

Additional observations from a re-analysis of the deposited data

How the results depend on the processing

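The members called, 3 for FGF2 against -GFs and 3 for FGF2 against BMP4, fell to 0 under the methods' t-test after Benjamini-Hochberg, which called 0 of all genes. At its unadjusted p under 0.05, with the fold threshold kept, 3 members were called in each comparison. Of all genes 202 were then called higher and 124 lower for FGF2 against -GFs, and 294 were called for FGF2 against BMP4. Leaving out 1 array gave 3 in both comparisons, and 0 with BMP4 against -GFs. The 5 EGR targets called became 9 with neqc, 13 without a fold threshold, 0 with the adjusted t-test, and 3 to 7 with 1 array left out (3 without FGF2 replicate 2). The 1 call on the route to SRF became 2 with neqc, 4 without a fold threshold, 0 with the adjusted t-test, and 0 to 2 with 1 array left out (0 without either FGF2 array, 2 without -GFs replicate 2). The 6 other early response factors became 3 with the unadjusted t-test (without FOS, JUN and JUNB), 0 with the adjusted one, and 1 to 6 with 1 array left out (3 without FGF2 replicate 1 and 1 without FGF2 replicate 2). Across all genes the 271 higher and 148 lower with FGF2 became 432 and 362 with neqc, 716 and 685 without a fold threshold, 123 and 62 without FGF2 replicate 1, and 73 and 37 without FGF2 replicate 2. In a setting added after the data were seen, neqc with the replicate block, the counts were 4 members in each comparison with FGF2 (NAB2 added), 10 EGR targets, 3 on the route to SRF, and 8 other early response factors, of which FOSB was called lower. The replicate block alone left the members called at 3, 0 and 3, and the lists at 5, 1, 0 and 6 with FGF2, and of the lists it changed the call of ID3 with BMP4 only. Of 108 differences of single member probes under quantile, neqc and median scaling normalization, 94 moved by less than 1 SD between replicates and 14 by more, all with neqc. With 2 arrays per group, leaving 1 out cannot move a difference by more than 1 SD of that group, so the ranges given for it are no check of stability. The causes were not tested. Signal over background limits EGR4, the second EGR3 probe and 3 NAB1 probes.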
